A study of Mus musculus with 6 samples.

Results

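The genes described here are the subunits of the vacuolar H+-ATPase (V-ATPase) and 10 genes of renal acid-base transport, measured by RNA sequencing of whole mouse kidney. They were chosen by name: every row of the deposited table whose symbol starts with Atp6v, plus Slc4a1, Slc4a4, Slc4a9, Slc26a4, Car2, Car4, Rhcg, Rhbg, Aqp6 and Foxi1. The rule took 33 of the 24346 rows, of which 5 encode V-ATPase subunits typical of intercalated cells, 18 are other V-ATPase rows and 10 are the named transporters, enzymes and the transcription factor. The kidneys came from C57BL/6 mice with no genetic change or drug given in the labels, 3 with the surgery labelled IVCC and 3 with the surgery labelled Sham. The title of the series names renal congestion, but the labels neither expand IVCC nor give age, sex or the time between surgery and sampling. They also do not say whether the 3 libraries of a group were separate mice, and every p-value below therefore covers only differences among these libraries, some of which may be technical.

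The V-ATPase is a rotary proton pump with a cytosolic sector, V1, that splits ATP, and a membrane sector, V0, through which protons pass. Every cell uses it to acidify lysosomes and endosomes, with widely expressed subunits. Intercalated cells of the collecting duct also place it in the plasma membrane to secrete acid (type A cells) or to take acid back into the blood (type B cells), and build it there with their own paralogs of several subunits. In the human, loss of the B1 or a4 subunit causes distal renal tubular acidosis. The proximal tubule reclaims most filtered bicarbonate with carbonic anhydrases and a basolateral sodium bicarbonate cotransporter.

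No V-ATPase subunit gene and none of the 10 named genes passed the test between IVCC and Sham kidneys. Levels are in the authors' deposited unit, FPKM, which counts fragments per kilobase of a transcript and scales them to the library's mapped fragments, and differences are log2 fold changes of IVCC over Sham on the log2(FPKM + 1) scale, which understates the change of low genes. Of the 33 rows, 32 passed the filter of a mean of at least 1 FPKM. None of these had an adjusted p under 0.05 (limma, Benjamini-Hochberg adjustment across all 12090 tested genes, adjusted p 0.924 to 0.993), where the table as a whole had 0 called genes (0%). None had an unadjusted p under 0.05 in limma either, against 3.56% of all tested genes. The IVCC and Sham values did not overlap for 1 member, Car2, which was higher in IVCC, against 8.31% of all tested genes (4.09% higher and 4.22% lower in IVCC). The members split evenly, with 16 fitted values above 0 and 16 below, and their median log2 fold change was -0.01, the same as the -0.01 of all tested genes. That split depended on the scaling: 28 fitted values were above 0 after scaling each library to a fixed sum (TPM), which by itself moved the median of all genes to 0.15, and 16 members lay above that median. After quantile normalization 25 were above 0, and after each library was corrected for length and GC content of the transcripts 23 were. The median of all genes was then -0.0026 and -0.0084, in that order, and 25 and 23 members lay above it.

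The precision of these comparisons was set by the 6 libraries. Without Atp6v0c and its pseudogene, described below, the fitted values of the other 30 members ran from -0.24 to 0.33, and their 95% confidence intervals from limma stayed between -0.75 and 0.78. The coefficient of variation over the 6 libraries ran from 3.60% for Atp6v1h to 23.6% for Slc4a4. FPKM do not hold read totals. The spacing of the smallest values corresponded to nominal totals of 8200000 to 9120000 reads per IVCC library and 6120000 to 7160000 per Sham library, with 60.1% to 64.0% of the values used lying within 0.1 of a whole read. Each total was chosen as the one with the highest such share, so the share does not test these totals. At those sizes every member other than Atp6v1g2 and Atp6v1e2 had at least 87 nominal reads in each library. Since whole kidney was sequenced, fewer cells of a type and less RNA per cell cannot be told apart.

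**Figure D1:**
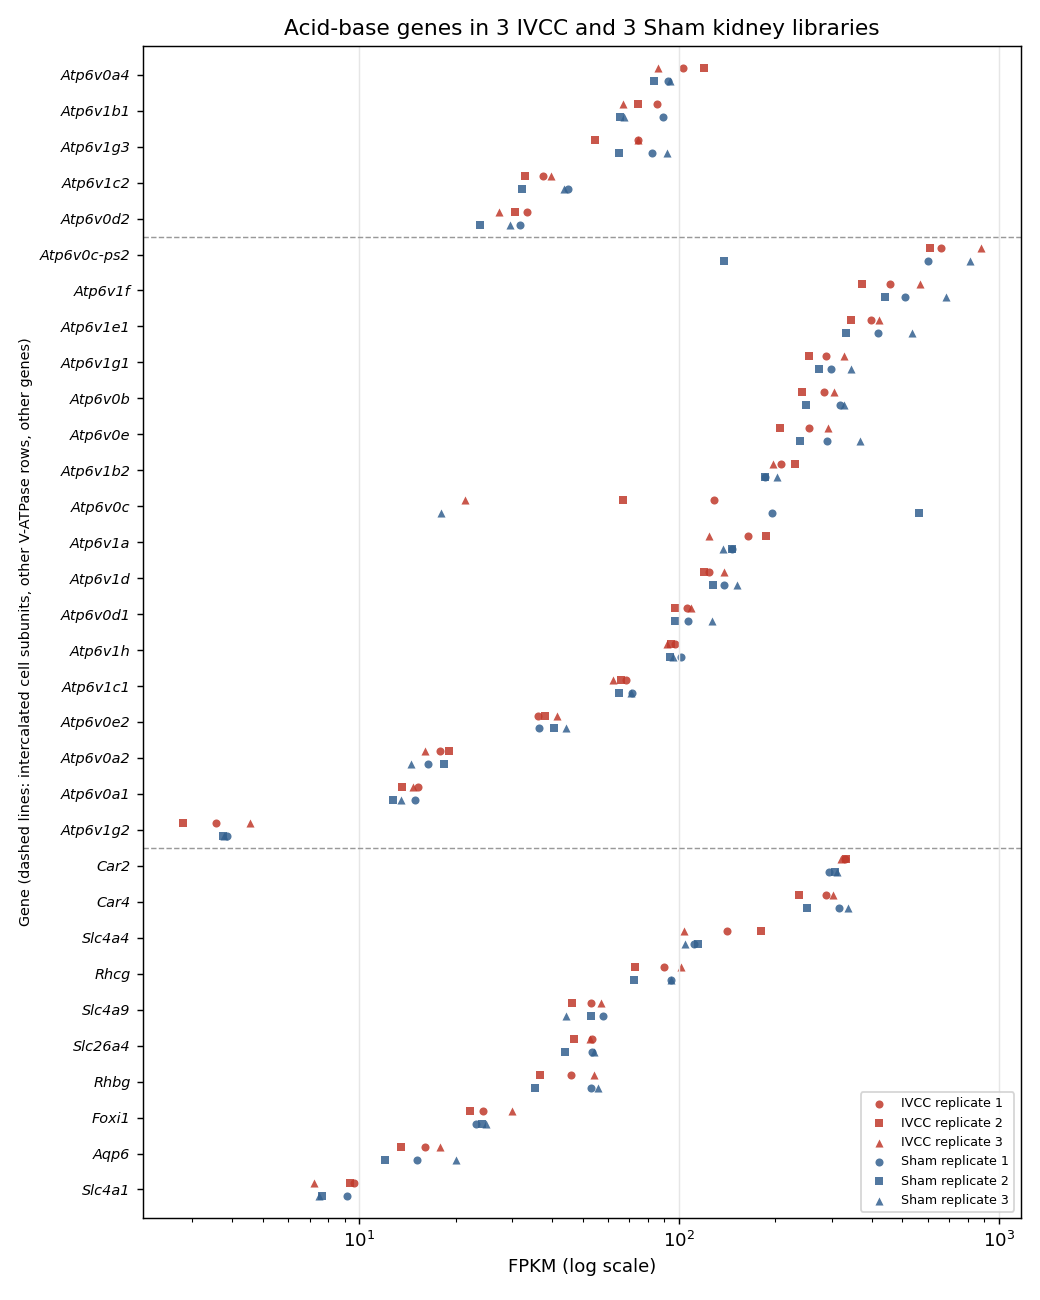
FPKM (log axis) of the 32 genes that passed the filter, with 1 point per library, IVCC in red above Sham in blue for each gene and the symbol shape giving the replicate number. The red and blue points overlap for every gene except Car2, and Atp6v0c and Atp6v0c-ps2 spread far more widely than the others.

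The 5 intercalated cell subunits were all well expressed in both groups. Atp6v0a4, the a4 subunit that carries the proton channel in intercalated cells (chr6:38048483-38124586, GRCm38, minus strand), stood at 103, 120.1 and 85.9 FPKM in IVCC replicates 1 to 3, against 92.5, 83.5 and 93.9 FPKM in Sham replicates 1 to 3. IVCC replicates 1 and 2 were above all Sham libraries and IVCC replicate 3 was below all but Sham replicate 2. Its log2 fold change was 0.18, with a 95% confidence interval of -0.16 to 0.52 (0.066 without IVCC replicate 2 and 0.31 without IVCC replicate 3).

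Atp6v1b1, the B1 subunit of the ATP-splitting head (chr6:83742990-83758855, plus strand), stood at 85.3, 74.4 and 66.8 FPKM in the IVCC libraries, against 89.2, 65.5 and 67.3 in the Sham libraries. The highest library and the lowest were both Sham, so the IVCC values lay within the Sham range (log2 fold change 0.04, 95% interval -0.34 to 0.41). Atp6v1g3, the G3 subunit of the peripheral stalk (chr1:138273738-138289462, plus strand), stood at 74.6, 54.6 and 74.2 FPKM in the IVCC libraries, against 82.4, 64.9 and 91.6 in the Sham libraries. It had the most negative fitted value of the 5, -0.23 with an interval of -0.64 to 0.19, and 2 of 3 IVCC values lay inside the Sham range.

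Atp6v1c2, the C2 subunit that joins the head to the membrane sector (chr12:17284721-17329359, minus strand), stood at 37.5, 33.1 and 39.7 FPKM in the IVCC libraries, against 44.8, 32.4 and 43.5 in the Sham libraries. All of its IVCC values lay inside the Sham range. Atp6v0d2, the d2 subunit at the base of the rotor (chr4:19876841-19922605, minus strand), stood at 33.4, 30.7 and 27.4 FPKM in the IVCC libraries, against 31.9, 23.9 and 29.6 in the Sham libraries. The groups overlapped here too. The log2 fold changes were -0.12 for Atp6v1c2 and 0.10 for Atp6v0d2, each with an interval that spans 0. Over the 5 subunits 3 fitted values were above 0 and 2 below, with a median of 0.04 (0.21 after TPM scaling). Atp6v0d2 is also made by osteoclast-like macrophages in mice. Of 6 markers of such cells, 1 of the 3 tested had a fitted value above 0, and the summed level was 58.7 to 88.3 FPKM in IVCC and 56.6 to 104.9 FPKM in Sham. The smallest limma unadjusted p of this list were those of Nfatc1 (0.314) and Ctsk (0.569). Most of the sum was Acp5, while Dcstamp was listed at 0 in every library.

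Each of these subunits has a ubiquitous paralog that occupies the same place in the pump. Atp6v1b2, the B2 subunit, stood at 209, 230.0 and 196 FPKM in the IVCC libraries, against 186, 186 and 202 in the Sham libraries. Atp6v1g1, the G1 subunit, stood at 288, 256 and 329 FPKM in the IVCC libraries, against 298, 274 and 344 in the Sham libraries. The groups overlapped for both, by 1 library in the case of Atp6v1b2, whose log2 fold change was 0.14 (interval -0.14 to 0.43). Atp6v1c1, the C1 subunit, stood at 68.3, 66.0 and 62.2 FPKM in the IVCC libraries, against 71.4, 64.8 and 70.6 in the Sham libraries. For Atp6v0d1, the d1 subunit, the values were 106, 97.3 and 109 FPKM in the IVCC libraries, against 107, 97.0 and 126 in the Sham libraries. Atp6v0a1, the a1 subunit, was low throughout, at 15.3, 13.6 and 14.7 FPKM in the IVCC libraries, against 14.9, 12.7 and 13.5 in the Sham libraries. No paralog separated the groups.

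The ratio of each intercalated cell subunit to its paralog was taken within a library, where a single scaling factor for that library cancels. FPKM are per kilobase, so levels of different genes can be set beside each other, but a dependence on transcript length that differs between libraries, described below, does not cancel. Atp6v0a4 was the only 1 of the 5 that exceeded its paralog, making up 87.4% ± 2.26 of Atp6v0a4 plus Atp6v0a1 in IVCC and 86.8% ± 0.655 in Sham (SD, n = 3 each). Among the 4 a subunits, with Tcirg1 (a3) and Atp6v0a2 counted in, it took 69.3% ± 4.05 of the FPKM in IVCC and 67.4% ± 1.71 in Sham. Atp6v1c2 made up 35.9% ± 2.82 of the C pair in IVCC and 36.7% ± 2.91 in Sham. Atp6v1b1 made up 26.3% ± 2.43 of the B pair in IVCC and 27.8% ± 3.99 in Sham. Atp6v1g3 made up 18.9% ± 1.54 of the G pair in IVCC and 20.6% ± 1.30 in Sham. Atp6v0d2 made up 22.7% ± 2.23 of the d pair in IVCC and 20.6% ± 2.13 in Sham. By transcript level, the a4 form was thus the larger part of subunit a in whole kidney, and the ubiquitous form was the larger part of the other 4 pairs. Whole kidney does not show which cells made these transcripts, so the shares are not a measure of intercalated cells.

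The 5 ratios overlapped between the groups. The difference in mean log2 ratio, IVCC minus Sham, was 0.18 for Atp6v0d2 over Atp6v0d1 and -0.16 for Atp6v1g3 over Atp6v1g1, each with p = 0.2 in an exact two-sided permutation test (adjusted p = 0.5 over the 5 ratios). The others differed by 0.10 for Atp6v0a4 over Atp6v0a1, -0.11 for Atp6v1b1 over Atp6v1b2 and -0.05 for Atp6v1c2 over Atp6v1c1, with exact permutation p = 0.8, 0.6 and 1. With 3 libraries against 3 this exact test cannot go below p = 0.1, so none of the ratios could have reached 0.05, and the difference of Atp6v1g3 over Atp6v1g1 was larger than either group's SD (0.14 in IVCC and 0.12 in Sham). After the length and GC correction, an alternative chosen after seeing the data, the differences were 0.064 for Atp6v0d2 over Atp6v0d1, -0.21 for Atp6v1g3 over Atp6v1g1, 0.10 for Atp6v0a4 over Atp6v0a1, 0.018 for Atp6v1b1 over Atp6v1b2 and 0.027 for Atp6v1c2 over Atp6v1c1. The corrected difference of Atp6v1g3 over Atp6v1g1 was smaller than either group's SD (0.224 in IVCC and 0.221 in Sham, exact permutation p = 0.4).

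**Figure D2:**
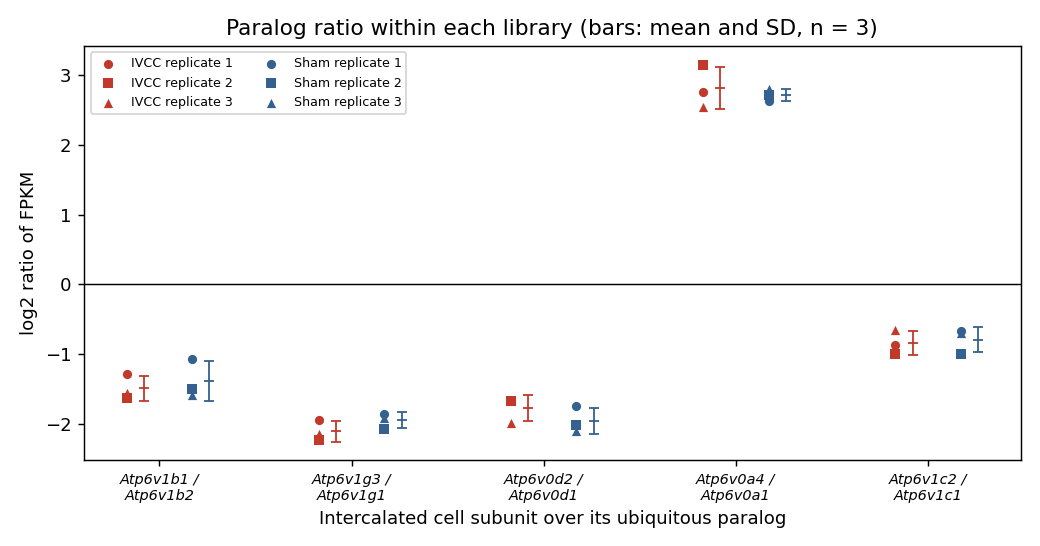
The log2 ratio of FPKM of each intercalated cell subunit to its ubiquitous paralog in each library, IVCC in red left of Sham in blue, with the mean and SD of 3 libraries beside the points. Values above 0 mean a higher FPKM of the subunit named first, in whole kidney. This is seen for Atp6v0a4 over Atp6v0a1 alone, and the IVCC and Sham points overlap in all 5 ratios.

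The other subunits of the V1 sector ranged from abundant to undetected. Atp6v1f of the rotor shaft averaged 466 ± 98.3 FPKM in IVCC kidneys and 545 ± 126 in Sham kidneys (SD, n = 3 each, here and below). Atp6v1e1 of the stalks averaged 389 ± 38.9 FPKM in IVCC kidneys and 430.3 ± 102 in Sham kidneys. The catalytic Atp6v1a averaged 158 ± 31.7 FPKM in IVCC kidneys and 143 ± 5.13 in Sham kidneys. These 3 differences were smaller than the larger SD of each pair. Atp6v1d, also of the shaft, averaged 127 ± 10.1 FPKM in IVCC kidneys and 139 ± 12.1 in Sham kidneys. Atp6v1h, a regulatory subunit of the head, was the steadiest member, at 94.5 ± 2.77 FPKM in IVCC kidneys and 97.0 ± 4.12 in Sham kidneys. Its interval of -0.28 to 0.20 for the log2 fold change was among the narrowest. Atp6v1g2, which is known from neurons, stayed at 2.81 to 4.54 FPKM, with as few as 7 nominal reads in a library. That number rests on a median transcript of 524 bases, while the transcript with the longest coding part has 1528, so it is uncertain. So few reads limit what the value of Atp6v1g2 can show. Atp6v1e2, known from testis, was listed at 0 in all 6 libraries.

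In the V0 sector, Atp6v0b, a subunit of the proton-carrying ring, averaged 277 ± 32.6 FPKM in IVCC kidneys and 299 ± 43.7 in Sham kidneys. Atp6v0e, a small membrane subunit, averaged 251 ± 42.7 FPKM in IVCC kidneys and 299 ± 64.8 in Sham kidneys. Their fitted values were -0.10 for Atp6v0b and -0.24 for Atp6v0e, and the groups overlapped for both. The related Atp6v0e2 averaged 38.6 ± 2.74 FPKM in IVCC kidneys and 40.5 ± 3.99 in Sham kidneys. Atp6v0a2, an a subunit of the Golgi, averaged 17.7 ± 1.52 FPKM in IVCC kidneys and 16.4 ± 1.93 in Sham kidneys. Of the 17 tested V-ATPase rows outside the intercalated cell set, 12 had fitted values below 0 and 5 above, with a median of -0.07. That median had the other sign after quantile normalization (0.05) and the length and GC correction (0.02). After TPM scaling it was 0.10, below the 0.15 of all tested genes, as -0.07 was below their -0.01 without that scaling. Since the position thus depended on the processing, no direction can be given for the ubiquitous pump.

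**Figure D3:**
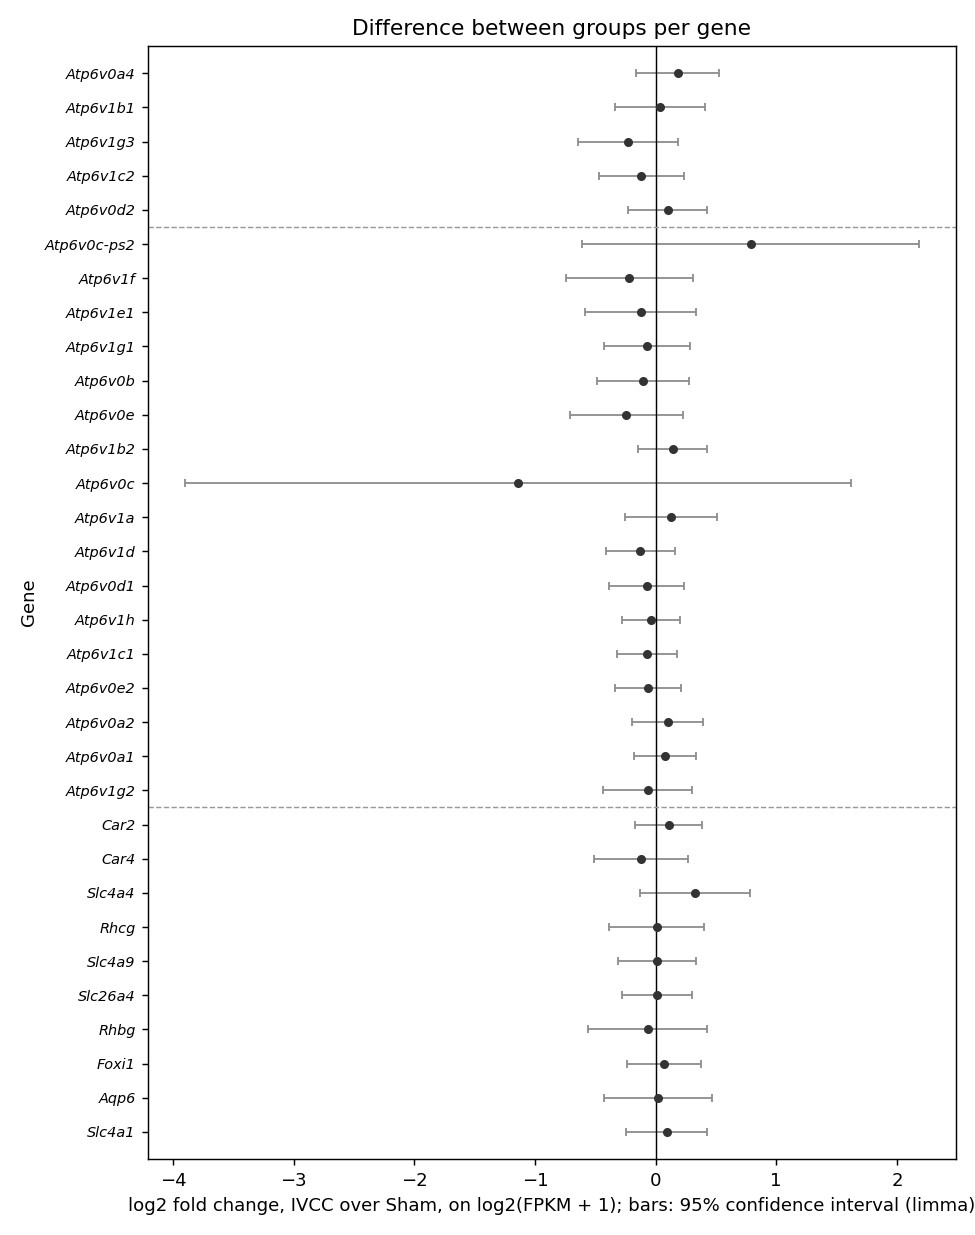
Log2 fold change of IVCC over Sham for each of the 32 genes tested, with the 95% confidence interval from limma as the bar. Every interval spans 0, and those of Atp6v0c and Atp6v0c-ps2 are the widest, reaching -3.90 and 2.18.

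The c subunit, which forms most of the proton-carrying ring, needs separate treatment, because a processed pseudogene repeats its coding sequence almost letter for letter. Atp6v0c lies at chr17:24163866-24169702 (minus strand) and Atp6v0c-ps2 at chr6:37806086-37806550 (plus strand, GRCm38). Of the 465 bases of the pseudogene, 464 are identical to the coding sequence of Atp6v0c, and the single difference is T111C, counted from the first base of the start codon. The 60 bases from coding position 81 to 140 are shown for the gene and the pseudogene, in GENCODE M21 transcript sequence. They hold the only base that differs over the 465 aligned bases, which is in capitals.
Atp6v0c: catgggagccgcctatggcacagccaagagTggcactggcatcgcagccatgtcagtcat
Atp6v0c-ps2: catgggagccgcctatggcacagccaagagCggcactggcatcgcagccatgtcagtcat
Reads of this series were 75 bases long. Of the 391 windows of that length in the pseudogene, 316 (80.8%) occur unchanged in the Atp6v0c transcript, and those reads fit both places equally well. Of the 1109 windows of the Atp6v0c transcript, only 316 (28.5%) occur in another annotated gene, so most of them belong to Atp6v0c alone. A further pseudogene in the annotation, Atp6v0c-ps1, shares windows with both Atp6v0c and Atp6v0c-ps2 and was not analysed here.

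The division of the deposited values between the gene and this pseudogene varied widely among libraries. Atp6v0c stood at 129, 66.8 and 21.4 FPKM in the IVCC libraries, against 195, 563 and 18.0 in the Sham libraries, a 31.2-fold range. Atp6v0c-ps2 stood at 658, 607 and 878 FPKM in the IVCC libraries, against 602, 138 and 813 in the Sham libraries. In Sham replicate 2 the pseudogene held 19.7% of the summed FPKM, while in the other 5 libraries it held 75.6% to 97.8%, nearly the same in IVCC replicate 3 and Sham replicate 3. The sum was far steadier, at 786, 674 and 899 FPKM in the IVCC libraries, against 797, 701 and 831 in the Sham libraries, a 1.33-fold range. Fitted on their own, Atp6v0c had a log2 fold change of -1.14 (95% interval -3.90 to 1.62) and Atp6v0c-ps2 of 0.79 (interval -0.61 to 2.18). Single libraries decided these values: without Sham replicate 2 they were -0.07 for Atp6v0c and 0.01 for Atp6v0c-ps2, and without Sham replicate 3 Atp6v0c was at -2.51. Their sum, a step chosen after seeing the data, had a log2 fold change of 0.01 (interval -0.39 to 0.41, limma adjusted p = 0.991). FPKM are per kilobase, and the median transcript has 465 bases for Atp6v0c-ps2 and 989.5 for Atp6v0c. A read that moves between the 2 rows therefore changes the sum, and neither the sum nor the share counts reads. The sum in reads was not computed. Neither row, alone or summed with the other, is read as a measure of the c subunit.

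**Figure D4:**
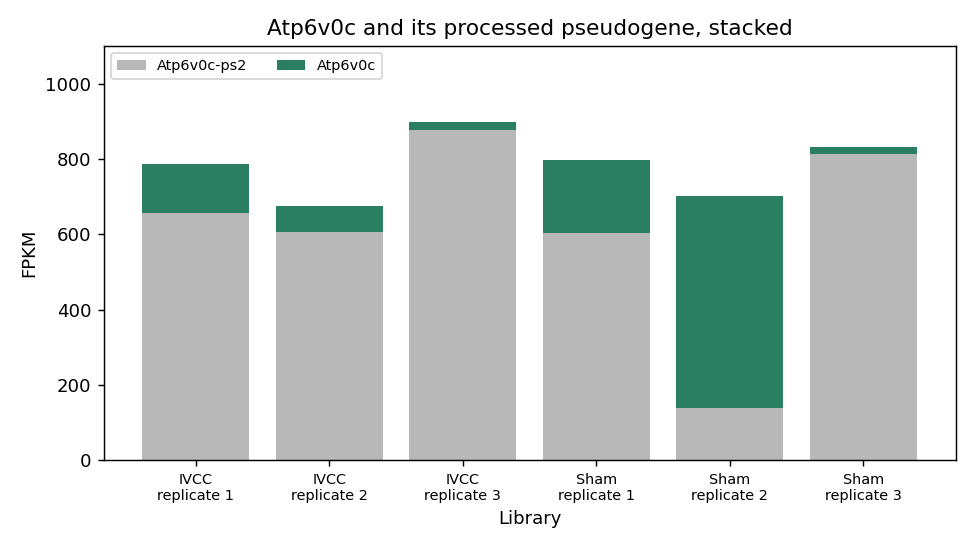
Stacked bars of FPKM for Atp6v0c-ps2 (grey) and Atp6v0c (green) in each library, IVCC at the left and Sham at the right. The division varies, and Sham replicate 2 stands apart from the other libraries, while the stacked height stays between 674 and 899 FPKM.

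Some other members also share read-length windows with transcripts of other genes. The share was 59.9% for Rhbg with Gm38392, 25.7% for Atp6v1e2, 12.5% for Atp6v1g1, 9.9% for Atp6v0a2, 8.6% for Atp6v1f and 0.2% for Atp6v1a. The FPKM of Rhbg is uncertain for that reason. The remaining 25 members share no window with another annotated gene.

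Transporters of type A cells did not separate the groups. Slc4a1, the basolateral chloride-bicarbonate exchanger AE1, stood at 9.64, 9.35 and 7.21 FPKM in the IVCC libraries, against 9.17, 7.67 and 7.46 in the Sham libraries. IVCC replicates 1 and 2 were the highest 2 libraries and IVCC replicate 3 was the lowest (log2 fold change 0.09, 95% interval -0.24 to 0.43). Red cells make AE1 as well, and beside it 7 erythroid markers found in the table summed to 61.1 to 110.5 FPKM in IVCC and 85.9 to 116 FPKM in Sham, most of it the globin gene Hba-a1. Of the 3 tested, Alas2 and Hbb-bs had the smallest limma unadjusted p, 0.175 and 0.318. Their part in the Slc4a1 value was not tested. Aqp6, a channel of acid-secreting vesicles, stood at 16.1, 13.5 and 17.8 FPKM in the IVCC libraries, against 15.2, 12.0 and 20.1 in the Sham libraries. All 3 IVCC values of Aqp6 lay between the lowest and highest Sham libraries.

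Type B cell transporters had nearly equal means. Slc26a4, the apical exchanger pendrin, stood at 53.4, 46.9 and 52.5 FPKM in the IVCC libraries, against 53.4, 44.1 and 54.3 in the Sham libraries. Slc4a9, the basolateral exchanger AE4, stood at 52.9, 46.3 and 56.8 FPKM in the IVCC libraries, against 58.0, 53.1 and 44.4 in the Sham libraries. Both had a log2 fold change of 0.01, with 95% intervals of -0.28 to 0.30 for Slc26a4 and -0.31 to 0.33 for Slc4a9, and the IVCC values of each lay within the Sham range. Foxi1, the transcription factor that specifies intercalated cells, stood at 24.4, 22.1 and 30.1 FPKM in the IVCC libraries, against 23.2, 24.2 and 25.0 in the Sham libraries. The IVCC libraries of Foxi1 held both the highest and the lowest value (log2 fold change 0.07, interval -0.24 to 0.38).

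The ammonia channel genes varied more between libraries of a group than between the groups. Rhcg, found in apical and basolateral membranes of the collecting duct, stood at 89.5, 72.8 and 102 FPKM in the IVCC libraries, against 94.6, 72.4 and 94.6 in the Sham libraries. Its basolateral relative Rhbg stood at 46.1, 36.6 and 54.1 FPKM in the IVCC libraries, against 53.1, 35.4 and 55.9 in the Sham libraries. For both genes the libraries numbered 2 were the lowest in each group. The log2 fold changes were 0.01 for Rhcg (95% interval -0.38 to 0.40) and -0.07 for Rhbg (interval -0.56 to 0.43).

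Carbonic anhydrases speed the conversion between carbon dioxide and bicarbonate. Car2, the cytosolic form of intercalated and proximal cells, stood at 331, 333 and 320.3 FPKM in the IVCC libraries, against 294, 307 and 312 in the Sham libraries. Every IVCC value was above every Sham value, by 1.08-fold in the fitted value, and the coefficient of variation over all 6 libraries was only 4.73%. The difference still did not pass (log2 fold change 0.11, standard error 0.12, limma unadjusted p = 0.392). Car4, the membrane-anchored form at the proximal brush border, stood at 289, 238 and 303 FPKM in the IVCC libraries, against 316, 252 and 338 in the Sham libraries, with overlapping groups and a log2 fold change of -0.12 (95% interval -0.51 to 0.27).

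Slc4a4, the sodium bicarbonate cotransporter NBCe1 that moves reclaimed bicarbonate from proximal cells to the blood, had the smallest p of the members. It stood at 141, 180.1 and 104 FPKM in the IVCC libraries, against 112, 114 and 105 in the Sham libraries. IVCC replicates 1 and 2 were above every Sham library, and IVCC replicate 3 was below every Sham library. The log2 fold change was 0.33 with a standard error of 0.20 and a 95% interval of -0.13 to 0.78 (limma unadjusted p = 0.138, adjusted p = 0.924). The IVCC libraries decided its size: without IVCC replicate 2 it was 0.14 (limma unadjusted p = 0.452), and without IVCC replicate 3 it was 0.53 (unadjusted p = 0.0108, and no member's adjusted p below 0.552). Beside it, 7 of 12 proximal tubule markers had fitted values above 0 and 5 below, with none at an unadjusted p under 0.05 (the nearest were Slc34a3 and Slc5a2, with log2 fold changes of 0.33 and 0.23), and their summed level was 7438 to 8425 FPKM in IVCC kidneys and 7621 to 8769 in Sham kidneys.

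The members varied together between libraries, and their position followed transcript length. Among the 30 tested members other than Atp6v0c and its pseudogene, 5 have a median transcript under 1200 bases in GENCODE M21 (Atp6v1g1, Atp6v0b, Atp6v1f, Atp6v0e and Atp6v1g2) and 8 have one over 3000 bases (among them Slc4a4, Atp6v1a, Atp6v0a4 and Slc26a4). Relative to each gene's mean over the 6 libraries, the short genes had a median log2 level of -0.04, -0.30 and 0.15 in IVCC replicates 1 to 3, against 0.05, -0.17 and 0.21 in Sham replicates 1 to 3. The long genes lay at 0.11, 0.15 and -0.12 in IVCC, against 0.01, -0.11 and -0.09 in Sham. For the short genes IVCC replicate 2 was the lowest and Sham replicate 3 the highest, while for the long genes IVCC replicate 2 was the highest and IVCC replicate 3 the lowest. Across these 30 genes Spearman's rho between length and position was 0.68, 0.69 and -0.54 in IVCC replicates 1 to 3, against -0.18, 0.25 and -0.70 in Sham replicates 1 to 3. The points of a library share its RNA and preparation, so rho is a description. Over 12017 tested genes it had the same sign in each library, from -0.59 in Sham replicate 3 to 0.60 in IVCC replicate 2, so the pattern is not particular to acid-base genes.

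**Figure D5:**
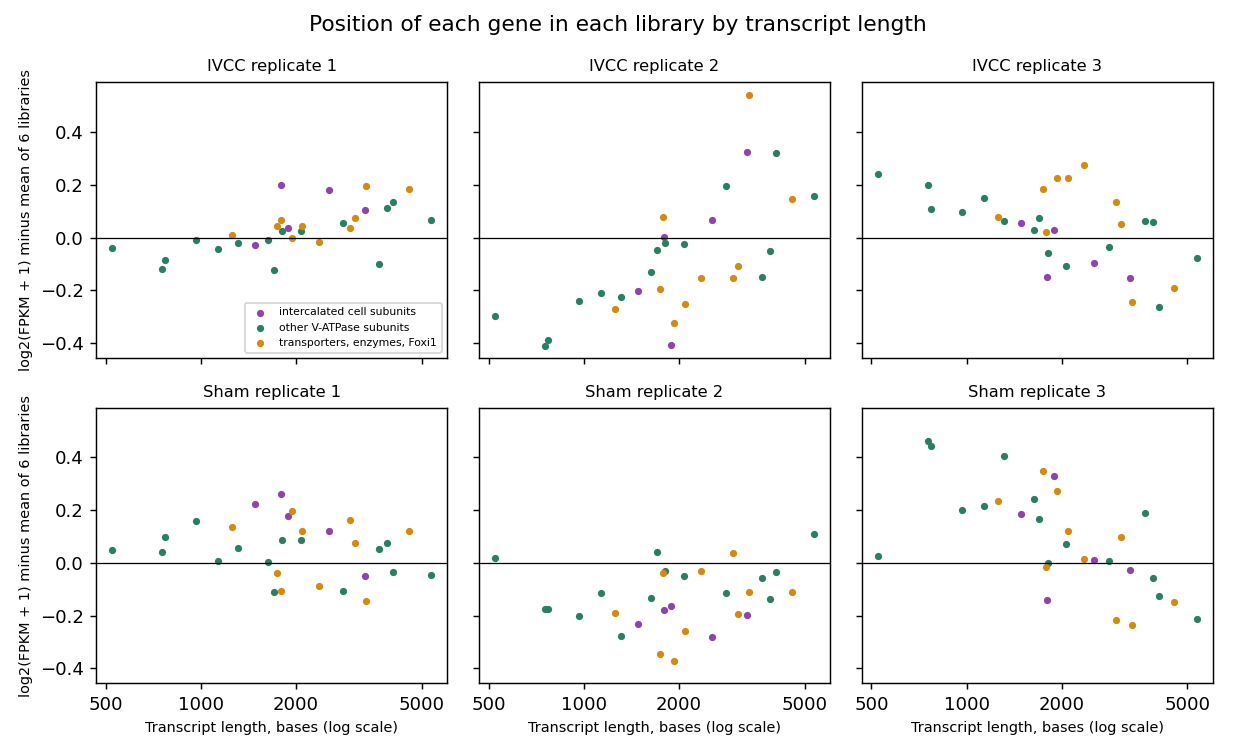
Each panel is a library, IVCC above and Sham below, and each point is a gene at its transcript length in bases (log axis) and its log2(FPKM + 1) minus its mean over the 6 libraries. Points climb to the right in IVCC replicates 1 and 2 and descend in IVCC replicate 3 and Sham replicate 3.

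No gene that assembles or steadies the pump had an unadjusted p under 0.05 in limma. Of 17 such genes 16 were tested, 10 with fitted values above 0 and 6 below. The nearest were Tldc2, of the TLDc family of pump regulators, at 13.4 ± 1.03 FPKM in IVCC kidneys and 11.0 ± 2.81 in Sham kidneys, and Dmxl1, of the assembly complex, at 7.78 ± 1.93 FPKM in IVCC kidneys and 6.12 ± 1.39 in Sham kidneys. The accessory subunit gene Atp6ap1 averaged 141 ± 3.87 FPKM in IVCC kidneys and 139 ± 10.5 in Sham kidneys. Atp6ap2, the prorenin receptor gene, averaged 67.6 ± 5.53 FPKM in IVCC kidneys and 61.6 ± 4.27 in Sham kidneys. Of 26 lysosomal genes and targets of TFEB, the factor that drives lysosome genes, 13 fitted values were above 0 and 13 below, and none had an unadjusted p under 0.05. The nearest were Hexa, a lysosomal hexosaminidase gene, at 33.9 ± 1.92 FPKM in IVCC kidneys and 27.0 ± 6.52 in Sham kidneys, and Clcn7, the lysosomal chloride-proton exchanger gene, at 23.0 ± 0.335 FPKM in IVCC kidneys and 20.4 ± 1.03 in Sham kidneys.

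Other acid-base transporters gave a single gene at an unadjusted p under 0.05, of 21 tested (17 fitted values above 0 and 4 below; 1.7% of all tested genes were higher at that p and 1.87% lower). This was Slc26a1, a basolateral sulfate and bicarbonate exchanger of the proximal tubule, at 57.4 ± 6.53 FPKM in IVCC kidneys and 43.9 ± 4.56 in Sham kidneys (log2 fold change 0.38, limma unadjusted p = 0.0226, adjusted p = 0.924). Of 11 other carbonic anhydrase genes, mitochondrial Car5a was lower in IVCC at that level, at 2.06 ± 0.496 FPKM in IVCC kidneys and 3.82 ± 1.14 in Sham kidneys (unadjusted p = 0.0172, adjusted p = 0.924). The membrane-bound Car12 averaged 124 ± 22.2 FPKM in IVCC kidneys and 104 ± 8.16 in Sham kidneys.

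Ammonia formation from glutamine was covered by 15 genes, 10 with fitted values above 0 and 5 below. The amino acid transporter genes Slc6a19 and Slc7a8 were higher at an unadjusted limma p under 0.05, against 1.7% of all tested genes, and neither passed the adjustment (adjusted p = 0.924 for each). Their groups did not overlap, nor did those of Ogdh, a gene of the citric acid cycle, against 4.09% of all tested genes that were higher without overlap. Slc6a19, the neutral amino acid carrier of the proximal brush border, averaged 129.8 ± 23.0 FPKM in IVCC kidneys and 89.9 ± 7.71 in Sham kidneys. Slc7a8, a basolateral exchanger, averaged 62.3 ± 7.12 FPKM in IVCC kidneys and 48.2 ± 3.06 in Sham kidneys. Ogdh averaged 115 ± 5.23 FPKM in IVCC kidneys and 103 ± 5.31 in Sham kidneys (limma unadjusted p = 0.168). Of 9 tested acid sensors and hormone receptors none had an unadjusted p under 0.05. The calcium-sensing receptor gene Casr was nearest, at 7.55 ± 3.21 FPKM in IVCC kidneys and 4.32 ± 0.510 in Sham kidneys, followed by Adgrf5, at 8.10 ± 1.46 FPKM in IVCC kidneys and 6.11 ± 1.30 in Sham kidneys.

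The presence of intercalated cells was described with 24 markers, which include the intercalated cell subunits, Slc4a1, Slc4a9, Slc26a4, Aqp6, Rhcg and Foxi1 described above. The list thus partly repeats those values and is not a separate check. Of the 24 markers 21 were tested and none was listed at 0 in every library. Their summed level was 831 to 1018 FPKM in IVCC kidneys and 779 to 1034 in Sham kidneys, 15 fitted values were above 0 and 6 below, and none had an unadjusted p under 0.05. The nearest of these were Tfcp2l1, a transcription factor gene of the collecting duct, at 37.1 ± 4.70 FPKM in IVCC kidneys and 29.9 ± 4.84 in Sham kidneys, and Kit, at 3.24 ± 0.427 FPKM in IVCC kidneys and 2.65 ± 0.350 in Sham kidneys.

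Markers of other cell types stood beside these values as follows, with no adjusted p under 0.05 among them. The water channel gene Aqp4 was the 1 of 11 principal cell markers with an unadjusted limma p under 0.05, and its log2 fold change was -0.80. In the thick ascending limb the same held for Ptger3, a prostaglandin receptor gene, at -0.44, of 7 markers tested. None of 7 distal convoluted tubule markers reached that p, with 6 fitted values above 0 and 1 below, and Wnk1 and Sgms2, with log2 fold changes of 0.30 and 0.25, were nearest. Psca, the 1 urothelial marker tested, had a log2 fold change of -1.16 (limma unadjusted p = 0.0250). The 6 urothelial markers summed to 0.817 to 1.96 FPKM in IVCC kidneys and 0.926 to 11.2 in Sham kidneys, with the highest sum in Sham replicate 3, the only library with Upk2 above 0. Higher in IVCC at that unadjusted p, where 1.7% of all tested genes were higher and 1.87% lower, were 5 of 5 podocyte markers (Synpo, Wt1, Nphs1, Ptpro and Podxl), 4 of 6 fibroblast markers (Col3a1, Col1a2, Col1a1 and Pdgfra), 3 of 8 endothelial markers (Pecam1, Ehd3 and Cdh5) and 5 of 9 macrophage markers (Lyz2, Mpeg1, Cd74, C1qc and C1qb), while the macrophage marker Csf1r was lower. Their summed levels were 37.2 to 65.3 FPKM in IVCC and 30.2 to 34.6 FPKM in Sham for podocytes, and 246 to 326 FPKM in IVCC kidneys and 214 to 232 in Sham kidneys for macrophages. For fibroblasts they were 39.9 to 46.2 FPKM in IVCC kidneys and 34.2 to 37.6 in Sham kidneys, and for endothelium 159 to 167 FPKM in IVCC kidneys and 137 to 154 in Sham kidneys. Their part in the acid-base values was not tested.

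Promoters were read for what the subunits share in sequence, since the widely expressed pump genes are known targets of TFEB and Atp6v1b1 of FOXI1. RefSeq start sites (GRCm38.p6) gave the 250 bases before and 50 after the start for 22 of the 33 members. The letters CACGTG stood in 4 of 12 other V-ATPase genes, in 0 of 4 intercalated cell subunit genes, in 1 of 6 matched transporter, enzyme or regulator genes (Aqp6) and in 8.09% of all 27025 genes. The longer TCACGTGA, the core of the CLEAR element and an extension of CACGTG that reads the same on both strands, stood in 3 of the 12, in 0 of the 4, in 0 of the 6 and in 1.12% of all genes. The 30 bases around it are shown for these 3 genes, with the motif in capitals and each read 5′ to 3′ on the gene's strand. They come from chr16:44139373-44139402, minus strand, for Atp6v1a, chr8:105566050-105566079, minus strand, for Atp6v0d1 and chr17:26676387-26676416, plus strand, for Atp6v0e.
Atp6v1a: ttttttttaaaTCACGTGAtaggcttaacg
Atp6v0d1: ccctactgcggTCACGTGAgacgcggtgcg
Atp6v0e: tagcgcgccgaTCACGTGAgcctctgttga
The motif starts 132 bases before the start of Atp6v1a, 4 bases before that of Atp6v0d1 and at base 3 of the Atp6v0e transcript. The log2 fold changes of these genes were 0.13 for Atp6v1a, -0.07 for Atp6v0d1 and -0.24 for Atp6v0e, each with an interval that spans 0.

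The forkhead core TGTTTAC, searched on both strands, stood in 4.05% of all genes and in 1 of the 22 matched members, Atp6v1b1. The 250 bases before its start (chr6:83742767-83743016, plus strand) are shown with that motif in capitals, 98 bases before the start, because this gene is the intercalated cell subunit whose promoter holds it.
Atp6v1b1: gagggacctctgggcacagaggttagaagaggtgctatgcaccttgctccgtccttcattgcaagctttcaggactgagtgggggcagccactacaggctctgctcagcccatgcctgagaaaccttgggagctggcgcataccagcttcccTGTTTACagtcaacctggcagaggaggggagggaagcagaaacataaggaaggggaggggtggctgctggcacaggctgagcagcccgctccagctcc
A match of letters is not a binding site, and no binding was measured in these kidneys.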

How the data were processed

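Kidney RNA was sequenced from a strand-specific mRNA kit, in single reads of 75 bases, per the labels' protocols. The values are FPKM, deposited by the authors in 1 table with 1 column per library; groups and replicate numbers come from the titles. TopHat2 2.0.13, Bowtie2 2.2.3, SAMtools 0.1.19 and Cufflinks 2.2.1 and the mm10 build are named in the submitters' processing notes, without roles; the annotation, filters and any scaling have no description there.

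The 12090 genes averaging 1 FPKM or more over the 6 libraries (12256 fell below) were transformed to log2(FPKM + 1) and compared with limma 3.58.1 in R 4.3.3 (eBayes with a trend, two-sided, Benjamini-Hochberg over all genes tested, threshold 0.05). The fit was tested on simulated data. Nominal depth assumed fragments of 200 bases, and counting error is the only error it covers. Lengths, coordinates and the 75-base windows are from GENCODE M21 (GRCm38, which mm10 names), promoters from RefSeq. The length and GC correction was a spline with 4 degrees of freedom each, with a length for 99.4% of tested genes.

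The members and gene lists were chosen with earlier results of these data known. Values are given for every library for the intercalated cell subunits, their paralogs and the 10 named genes, and for Atp6v0c and its pseudogene, chosen after their values were seen. From the other lists, genes at an unadjusted p under 0.05 are named, or otherwise the 2 with the smallest p, and a few defining genes chosen after their values were seen. A few marker genes are not reported here.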

Additional observations from a re-analysis of the deposited data

How the results depend on the processing

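After TPM scaling, which moved the median of all tested genes to 0.15, the log2 fold change turned positive, at 0.054 for Atp6v1e1 and Car4, 0.11 for Atp6v1g1, Rhbg and Atp6v0e2, 0.072 for Atp6v0b, 0.14 for Atp6v1h, 0.10 for Atp6v0d1 and Atp6v1c1, 0.051 for Atp6v1d, 0.056 for Atp6v1c2 and 0.071 for Atp6v1g2. The medians became 0.10 for the ubiquitous V-ATPase rows and 0.21 for the intercalated cell subunits. After quantile normalization it turned positive at 0.053 for Atp6v1e1, 0.019 for Car4, 0.083 for Atp6v1g1, 0.040 for Atp6v0b, 0.072 for Atp6v1h, 0.046 for Atp6v0d1, 0.026 for Atp6v1c1, 0.0066 for Rhbg and 0.0031 for Atp6v0e2. After the length and GC correction, with or without the replicate block, it turned to 0.016 for Atp6v1e1, 0.024 for Car4, 0.083 for Atp6v1g1, 0.082 for Atp6v0b, 0.058 for Atp6v1h, -0.051 for Slc26a4, -0.013 for Slc4a9, 0.043 for Atp6v0d1, -0.020 for Atp6v0a2, 0.017 for Rhbg, 0.039 for Atp6v0e2, 0.0036 for Atp6v1c2 and 0.019 for Atp6v1g2. The same correction turned the ratio difference to 0.018 for Atp6v1b1 over Atp6v1b2 and 0.027 for Atp6v1c2 over Atp6v1c1. Summed with its pseudogene in FPKM, with the limit of length given above, Atp6v0c stood at 0.012. The cause of these changes was not tested.

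The correlation of same-numbered deviations was -0.11, 0.34 and 0.32 for numbers 1 to 3, and IVCC replicate 1 correlated best with Sham replicate 2 (0.068), while numbers 2 and 3 correlated best with their own. The numbers were not taken as pairs because the labels do not say that they pair libraries. With the number as a replicate block, 2388 genes of the table (19.8% of those tested) had an unadjusted limma p under 0.05. Among them were 4 of 32 members (Slc4a4, Atp6v1f, Atp6v0e and Atp6v1g3), and no member's adjusted p was below 0.127. Together with the length and GC correction, the block gave 1666 genes at that unadjusted p (13.8% of those tested). Of the 32 members 2 were among them (Car2 and Atp6v1d), and 1 gene, no member, was past the adjusted threshold. The exact test of paired ratio differences, which cannot go below 0.25, gave 0.25 to 1.

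Genes with an unadjusted p under 0.05 numbered 431 as reported, 780 with no filter, 282 with a filter at 5 FPKM (31 members tested, without Atp6v1g2) and 681 with the length and GC correction. Without IVCC replicate 3 the member Slc4a4 reached that p, beside 8.6% of tested genes, and without Sham replicate 3 Atp6v0c did, beside 3%. Leaving out each library gave 214 (without IVCC replicate 1) to 1039 (without IVCC replicate 3) genes at that p. This step gave 0 to 4 genes past the adjusted threshold and 0 to 1 members at an unadjusted p under 0.05. It also turned the sign of 14 members in at least 1 case, with log2 fold changes of -0.14 to 0.20 for Aqp6, -0.16 to 0.028 for Atp6v0d1, -0.016 to 0.18 for Atp6v0d2, -0.14 to 0.0040 for Atp6v0e2, -0.00042 to 0.29 for Atp6v1a, -0.055 to 0.18 for Atp6v1b1, -0.29 to 0.049 for Atp6v1e1, -0.16 to 0.018 for Atp6v1g1, -0.20 to 0.069 for Atp6v1g2, -0.049 to 0.16 for Foxi1, -0.27 to 0.080 for Rhbg, -0.12 to 0.14 for Rhcg, -0.082 to 0.069 for Slc26a4 and -0.096 to 0.094 for Slc4a9. Among members that kept their sign, it moved Slc4a4 between 0.14 and 0.53, Atp6v0a4 between 0.066 and 0.31, Atp6v1g3 between -0.37 and -0.082, Atp6v0e between -0.39 and -0.081 and Atp6v1f between -0.37 and -0.043. The difference in log2 ratio ran from 0.11 to 0.29 for Atp6v0d2 over Atp6v0d1, -0.24 to -0.10 for Atp6v1g3 over Atp6v1g1, -0.066 to 0.23 for Atp6v0a4 over Atp6v0a1, -0.21 to 0.053 for Atp6v1b1 over Atp6v1b2 and -0.15 to 0.033 for Atp6v1c2 over Atp6v1c1.

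Among tested members depth limits Atp6v1g2 most, and 3 libraries a group limit all members.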
